A study of Mus musculus with 36 samples.

Results

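The comparison described here is the change in messenger RNA of Ikaros-expressing B3 cells between 18 h and 24 h after induction. B3 is a line of mouse pre-B cells. The comparison was rebuilt from the 3 Ikaros libraries collected at 18 h and the 3 collected at 24 h, paired by culture batch number (1, 3 and 4), and it covers all 12762 genes of the table. These are 6 of the 36 libraries of the series. The other groups compared here are the control line at 18 h and 24 h over the same batches and the Ikaros line at 2 h and 12 h. The Ikaros line at 6 h and the control line at 2 h, 6 h and 12 h entered the same linear model. Its estimate of the spread, behind every SE and call, came from all 30 libraries from 2 h to 24 h.

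In the Ikaros line a retrovirus carries HA-tagged Ikaros fused to the ERt2 hormone-binding domain, followed by an IRES and GFP. The control line carries the ERt2 vector without Ikaros, with the same IRES and GFP, and both lines were sorted for GFP. Both were treated with 4-OHT (4-hydroxy-tamoxifen) at 0.5 uM, which lets an ERt2 fusion enter the nucleus. The flasks of a culture batch were given drug at different moments and harvested together, so the 18 h and 24 h cells of a batch differ in their time with drug and not in the moment of harvest. The fusion is expressed from a vector on top of the cells' own Ikaros gene. In the study's sample sheet the 18 h and 24 h libraries of each batch came from different library preparation runs. The authors adjusted the table for preparation before deposition, and the part of preparation in the values below was not tested.

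Ikaros is a zinc finger transcription factor of lymphoid cells that both represses and activates genes. Developing B cells first divide in response to IL-7 and the pre-B cell receptor, and later stop dividing, shrink and rearrange their immunoglobulin light chain genes. Ikaros is known to push cells from the first state to the second, with lower use of glucose and lower expression of Myc targets. Its recognition core on DNA holds the bases TGGGAA.

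Expression levels are log2 values normalised by the authors for GC content, length and library preparation, with a constant added to all of them, so a difference of 1 is a doubling and a level is not a count. Sequencing depth is unknown from these values, and precision is limited by the 3 libraries at each time. Differences are given as the level at 24 h minus the level at 18 h with the standard error (SE) of the linear model. A gene is called where the p-value adjusted over all genes is under 0.05.

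Ikzf1, the gene of Ikaros, checked the line labels. In the Ikaros line it stood at 20.66, 20.65 and 20.66 in batches 1, 3 and 4 at 18 h and at 20.93, 20.48 and 20.72 at 24 h. In control cells its means were 14.46 and 14.61. The Ikaros libraries lay far above the control libraries at both times, and the difference of 0.05 (SE 0.14, adjusted p = 0.898) between the times did not pass the test. Vector and endogenous transcripts were not separated.

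All 10 defining markers of pre-B cells on the list used here, among them Cd79a, Cd79b, Pax5, Ebf1 and Rag1, were in the table, and 9 of them were at or above the median gene. Their summed level lay between 19.63 and 19.73 at 18 h and between 19.85 and 19.94 at 24 h. For other cell types, the table held 3 of 14 T cell markers, 4 of 16 myeloid, 4 of 11 erythroid and 0 of 10 stromal markers. The summed levels ranged from 11.86 to 12.32 and from 11.91 to 12.44 for the T cell list at 18 h and 24 h, from 11.51 to 12.12 and from 11.18 to 11.53 for the myeloid list, and from 13.71 to 14.46 and from 14.30 to 14.38 for the erythroid list. A globin gene, Hbb-b2, made up most of the erythroid sum, and it has near-identical copies. The defining markers Cd3e, Csf1r and Gata1 were not among the genes analysed. The library medians of the 6 Ikaros libraries lay between 11.71 and 11.72.

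Between 18 h and 24 h the induced cells lowered genes of glycolysis, DNA replication and mitosis and raised a smaller set, including 6 of 22 genes on an NF-kB list, 6 of 17 of class I antigen presentation and 8 of 24 of sterol synthesis. The median of the sterol list was 0.30 in Ikaros cells and 0.32 in control cells, where 0 genes were called. Of the 12762 genes, 1061 were called, which is 8.31% of those tested. The falls outnumbered the rises, with 721 genes lower at 24 h (5.65%) and 340 higher (2.66%). Most of the differences were below a doubling. Only 79 called genes (0.619%) differed by 1 or more on the log2 scale, 31 of them higher and 48 lower, and the median absolute difference of the called genes was 0.51. The 3 libraries of one time did not overlap the 3 of the other in 332 of the 340 genes called higher and in 701 of the 721 called lower. Over all genes, 31.0% had no overlap.

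The count of calls depended on the libraries that entered the fit. It was 229 without culture batch 1, 45 without batch 3 and 791 without batch 4. A paired fit of the 6 libraries alone, with little left to estimate the spread, called 0 genes in limma, although 3378 had an unadjusted p under 0.05. Under that fit the adjusted p of the 30 genes with the largest changes lay between 0.0867 and 0.114. All 30 kept their direction, which was fixed in advance, since they were chosen for the same direction in all 3 batches.

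In control cells over the same interval, limma called 0 genes (0%), with 1790 at an unadjusted p under 0.05 and a smallest adjusted p of 0.0956. The test of the difference between the lines called 542 genes (4.25%). Of these, 394 had a more negative change in Ikaros cells and 148 a more positive one. Control batch 4 stood apart, since the SD over genes of its 24 h minus 18 h differences was 0.738, against 0.422 and 0.418 in control batches 1 and 3 and 0.485, 0.541 and 0.473 in the 3 Ikaros batches. The count of 542 fell to 1 without batch 1, to 0 without batch 3 and to 96 without batch 4.

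**Figure D1:**
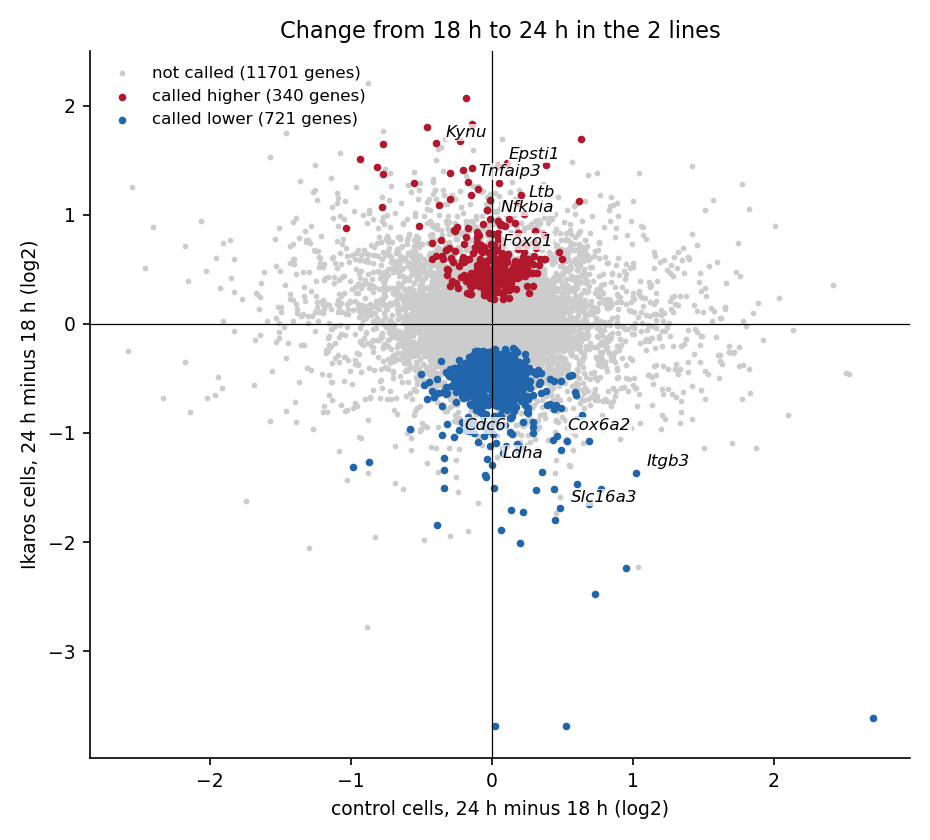
Each point is a gene, with its log2 difference between 24 h and 18 h in control cells on the x axis and in Ikaros cells on the y axis (means of 3 batches). Red points are the 340 genes called higher and blue points the 721 called lower in Ikaros cells, and 0 genes were called in control cells.

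The preceding 6 h changed more genes. From 12 h to 18 h in the Ikaros line 3939 genes were called (30.9%), with 1877 higher and 2062 lower. The median absolute difference over all genes was 0.314 in that interval and 0.187 from 18 h to 24 h, and it was 0.166 in control cells from 18 h to 24 h. The 2 Ikaros intervals share the 18 h libraries, so an error in those libraries moves both, in opposite directions.

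Enzymes of glycolysis made up 7 of the 15 largest falls among called genes at or above the median level. Ldha, which makes lactate from pyruvate, stood at 16.17, 16.09 and 15.95 at 18 h and at 14.63, 14.99 and 14.72 at 24 h in batches 1, 3 and 4. Every 24 h library lay below every 18 h library, and the difference was -1.29 (SE 0.12, adjusted p = 9.62e-06). In control cells the Ldha means were 17.69 and 17.70. Eno1, the enolase of this pathway, had the smallest adjusted p of all genes (3.26e-06). It stood at 17.65, 17.46 and 17.28 at 18 h and at 16.40, 16.35 and 16.36 at 24 h, a difference of -1.09 (SE 0.09). Gapdh, often used as a reference gene, fell from 18.11, 18.04 and 17.64 to 16.96, 16.92 and 16.94, a difference of -0.99 (SE 0.10, adjusted p = 1.06e-05), while its control means were 18.18 and 18.31. The 24 h values of Gapdh and Eno1 lay close together, and the 18 h values were highest in batch 1 and lowest in batch 4.

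Ordered along the pathway, the glucose carrier Slc2a1 changed by -0.65, Gpi1 by -0.46, the phosphofructokinases Pfkl and Pfkp by -1.16 and -0.59, Aldoa by -1.11, Tpi1 by -1.19, Pgk1 by -0.97, Pgam1 by -0.95 and Pkm by -1.12, and all of these were called. The lactate exporter Slc16a3 showed the largest change of the list at -1.69 (SE 0.36, adjusted p = 0.0047). It went from 10.53, 10.15 and 9.0 to 8.12, 8.11 and 8.39, so batch 4 contributed least. Hexokinase Hk2 changed by -0.39 (adjusted p = 0.0784) and the other lactate carrier, Slc16a1, by 0.26 (adjusted p = 0.393), and neither passed. Pdk1, a pyruvate dehydrogenase kinase, changed by -0.94 (SE 0.12, adjusted p = 5.93e-05).

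Over the list of glycolysis and lactate export, 13 of 21 measured members fell, 0 rose and 8 did not pass. The 13 made up 61.9% of the list, against 5.65% of all genes called lower. The median difference was -0.65, against 0.01 over all genes and 0.11 for the same list in control cells. In batches 1, 3 and 4 the list median was -0.85, -1.06 and -0.45. In the test of the difference between the lines, 12 members had a more negative change in Ikaros cells, and 4.25% of all genes were called. The count of 13 was 8 without batch 1, 5 without batch 3 and 13 without batch 4. Gm13394, a pseudogene among the 15 largest falls (17.25, 16.90 and 16.70 to 15.95, 15.94 and 15.94), may share reads with a functional copy, and its value is uncertain.

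Other large falls were Bnip3, a mitophagy receptor (-1.13, SE 0.29), Fam162a, a mitochondrial protein (-1.12, SE 0.22), and Mthfd1l, a mitochondrial folate enzyme (-0.98, SE 0.11). Cox7a1 and Cox6a2, the muscle-type forms of subunits of cytochrome c oxidase, changed by -1.34 (SE 0.28) and -1.03 (SE 0.24). Among all 78 subunits of oxidative phosphorylation in the table, 9 fell and 0 rose, so 11.5% were called lower, against 5.65% of all genes, with a median of -0.16. Those 9 became 1 without batch 1, 0 without batch 3 and 5 without batch 4.

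**Figure D2:**
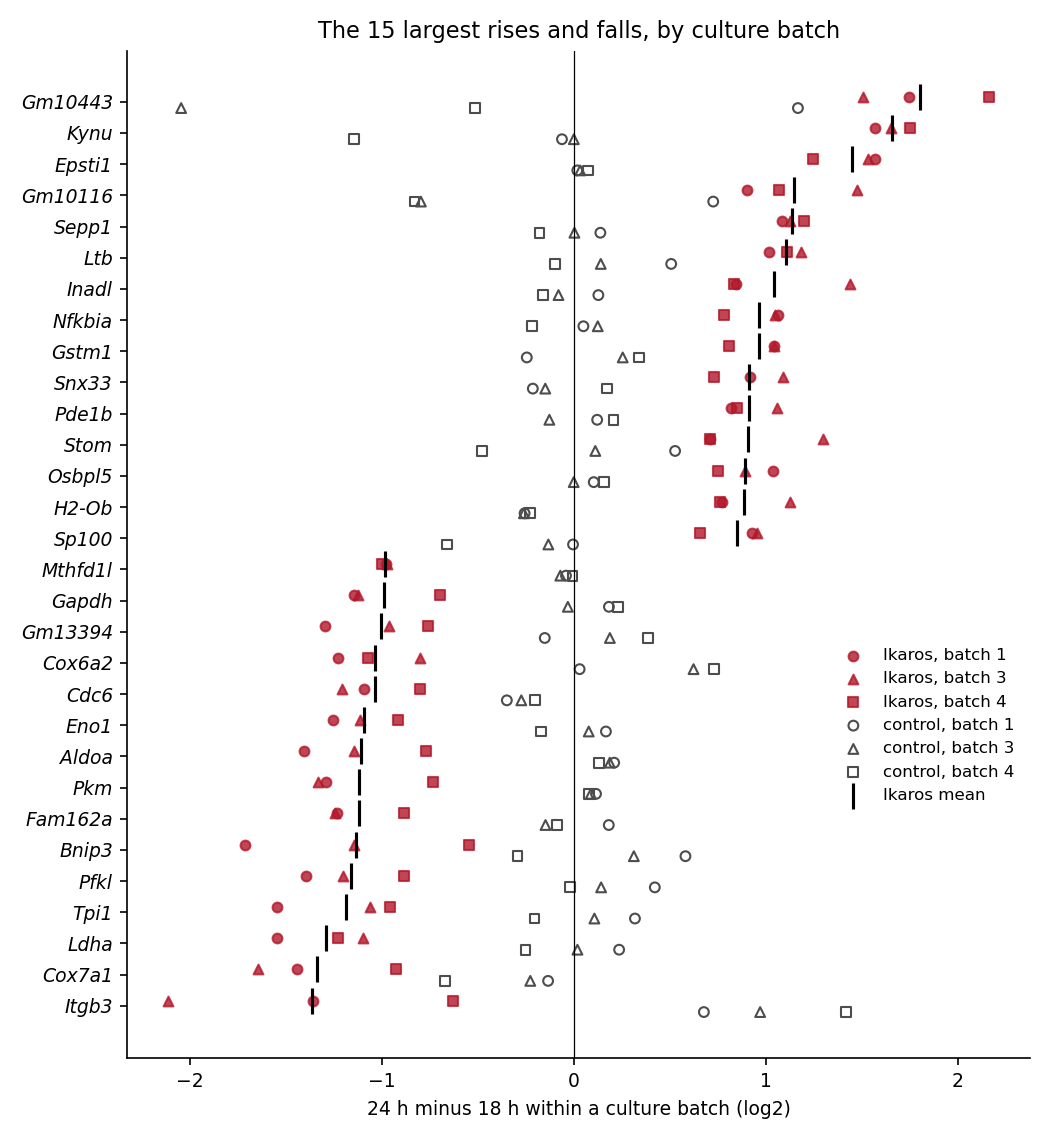
For the 15 largest rises and the 15 largest falls in Ikaros cells among called genes at or above the median level whose groups did not overlap, the log2 difference between 24 h and 18 h within each culture batch is plotted on the x axis, filled for Ikaros and open for control cells. Black ticks mark the mean of the 3 Ikaros batches, and every Ikaros point of a gene lies on the same side of 0.

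The promoters of Ldha and Bnip3 are shown because both hold the E-box CACGTG, the recognition sequence of Myc and its partners. Windows of 300 bases (250 before to 50 after the start) were taken from RefSeq on GRCm38.p6, which is the build of the authors' alignment (mm10), capitals mark the motif, and positions count from 1 at the 5′ end of the window. Ldha lies at chromosome 7, 46841475 to 46855627, and its window at chr7:46845554-46845853, plus strand, holds the E-box at positions 106 and 203 of the window. The window of Bnip3 at chr7:138909457-138909756, minus strand, holds it at position 143. Of 20 list members with a window, 3 held CACGTG, against 10.4% of the 8568 table genes with a window, 13.0% of the genes called lower and 11.1% of those called higher.
Ldha: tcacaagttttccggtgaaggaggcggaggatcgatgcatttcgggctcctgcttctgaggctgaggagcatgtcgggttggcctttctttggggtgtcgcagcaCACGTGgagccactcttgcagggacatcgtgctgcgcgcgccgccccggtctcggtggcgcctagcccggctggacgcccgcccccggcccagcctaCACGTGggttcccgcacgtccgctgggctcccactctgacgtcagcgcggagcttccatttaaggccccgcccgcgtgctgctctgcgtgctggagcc
Bnip3: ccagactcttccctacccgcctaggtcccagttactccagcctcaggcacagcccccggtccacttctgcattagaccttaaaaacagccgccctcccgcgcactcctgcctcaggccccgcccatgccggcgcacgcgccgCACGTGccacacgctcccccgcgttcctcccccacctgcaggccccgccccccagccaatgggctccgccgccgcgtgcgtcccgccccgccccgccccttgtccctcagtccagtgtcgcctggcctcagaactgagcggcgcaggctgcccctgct

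Most genes of DNA replication fell. On the S phase list, 46 of 64 measured members fell, 0 rose and 18 did not pass. The 46 made up 71.9% of the list, against 5.65% of all genes called lower. The median was -0.59, against 0.01 over all genes and -0.08 in control cells, and in batches 1, 3 and 4 it was -0.53, -0.60 and -0.58. In the test between the lines, 30 members had a more negative change in Ikaros cells, and 4.25% of all genes were called. The count of 46 fell to 25 without batch 1, to 7 without batch 3 and to 32 without batch 4. In bulk RNA, fewer cells in S phase and less of each transcript per cell cannot be told apart.

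Cdc6, which loads the replicative helicase onto origins, stood at 12.52, 12.68 and 12.31 at 18 h and at 11.43, 11.48 and 11.51 at 24 h. The 2 sets of libraries did not overlap, and the difference was -1.03 (SE 0.16, adjusted p = 0.000319). Cyclins E1 and E2, which drive entry into S phase, changed by -0.90 (Ccne1, SE 0.13) and -1.0 (Ccne2, SE 0.15). Ccne2 stood at 11.91, 11.93 and 11.88 at 18 h and at 10.91, 10.87 and 10.94 at 24 h. The uracil glycosylase Ung changed by -1.03 and the chromatin remodeller Hells by -0.95. Helicase subunits fell less, with Mcm2 at -0.71, Mcm5 at -0.61 and Mcm3 at -0.45.

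Of the E2F transcription factors, which control many of these genes, E2f1, E2f2, E2f7 and E2f8 fell. E2f1 went from 12.78, 12.97 and 12.93 to 12.17, 12.23 and 12.32, a difference of -0.66 (SE 0.07, adjusted p = 1.88e-05). E2f2 changed by -0.61 (SE 0.08) and the repressors of the family E2f7 and E2f8 by -0.82 (SE 0.14) and -0.85 (SE 0.12). E2f3 (-0.47, adjusted p = 0.11), E2f4 (-0.29, adjusted p = 0.279) and E2f5 (0.08, adjusted p = 0.898) were not called. On the list of G1 cyclins, kinases and their inhibitors, 5 of 22 members fell (Ccne1, Ccne2, E2f2, Rbl1 and Cdk2) and 0 rose, with a median of -0.15. These 5 made up 22.7% of the list, against 5.65% of all genes called lower. Leaving out batch 1 or 3 reduced the count of 5 to 2 and 1, and leaving out batch 4 kept it at 5. The D-type cyclin Ccnd3 and the inhibitor Cdkn1b changed by -0.23 and 0.17 and were not called.

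The E2F core TTCCCGCC was found in 11 of the 47 S phase members with a promoter window (23.4%), against 4.32% of the table genes with a window and 2.27% of all 27025 promoters of the reference. Among genes called lower it was in 47 of 546 (8.61%), and in 40 of 510 (7.84%) once the S phase list was left out. Among genes called higher it was in 2.37%. Both strands were searched, and the reverse of this motif contains GGGAA, the end of the Ikaros core, preceded by C, so the same bases never count as the Ikaros core. TGGGAA was in 22.7% of the promoters of genes called lower, 21.3% of those called higher and 22.4% of the table genes. A match is a description of these letters and not a bound site.

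The windows of Uhrf1 (chr17:56303087-56303386, plus strand), Chaf1a (chr17:56040166-56040465, plus strand), Pold1 (chr7:44548766-44549065, minus strand) and Mcm3 (chr1:20820263-20820562, minus strand) are shown as called members that hold the E2F core. Capitals mark motif matches. The E2F core starts at positions 203, 204, 289 and 269, and the other capitals are TGGGAA in either orientation (Chaf1a and Mcm3) and, in Chaf1a, CACGTG and at position 76 a match to the NF-kB core GGGANNTTC. Uhrf1, which keeps DNA methylation through replication, changed by -0.84 (SE 0.10), the histone chaperone subunit Chaf1a by -0.66 (SE 0.08), the polymerase subunit Pold1 by -0.67 (SE 0.07) and the helicase subunit Mcm3 by -0.45 (SE 0.08).
Uhrf1: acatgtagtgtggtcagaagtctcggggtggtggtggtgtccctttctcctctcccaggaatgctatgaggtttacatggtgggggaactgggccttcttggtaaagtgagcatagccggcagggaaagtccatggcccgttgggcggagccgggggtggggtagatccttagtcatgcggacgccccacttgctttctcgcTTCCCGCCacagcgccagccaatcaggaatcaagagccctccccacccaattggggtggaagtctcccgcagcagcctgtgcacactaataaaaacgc
Chaf1a: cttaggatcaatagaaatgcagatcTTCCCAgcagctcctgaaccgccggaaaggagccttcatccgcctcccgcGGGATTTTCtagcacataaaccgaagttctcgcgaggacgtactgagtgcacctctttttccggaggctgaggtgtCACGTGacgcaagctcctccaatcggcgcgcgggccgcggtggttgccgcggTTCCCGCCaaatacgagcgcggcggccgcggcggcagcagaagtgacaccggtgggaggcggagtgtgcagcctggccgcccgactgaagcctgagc
Pold1: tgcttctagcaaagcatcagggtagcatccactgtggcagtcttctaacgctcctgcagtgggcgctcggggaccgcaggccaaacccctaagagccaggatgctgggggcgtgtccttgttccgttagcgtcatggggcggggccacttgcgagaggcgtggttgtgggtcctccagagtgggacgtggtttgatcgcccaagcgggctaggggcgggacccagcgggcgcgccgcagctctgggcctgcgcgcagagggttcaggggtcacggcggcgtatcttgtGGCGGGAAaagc
Mcm3: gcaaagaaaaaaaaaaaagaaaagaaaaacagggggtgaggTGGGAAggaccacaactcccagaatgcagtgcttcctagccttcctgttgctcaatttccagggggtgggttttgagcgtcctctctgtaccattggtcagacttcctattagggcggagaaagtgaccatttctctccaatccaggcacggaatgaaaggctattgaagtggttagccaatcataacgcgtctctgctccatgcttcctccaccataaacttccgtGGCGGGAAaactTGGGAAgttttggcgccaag

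Genes of G2 and M phase also fell, by smaller amounts. On this list 31 of 60 measured members fell, 0 rose and 29 did not pass, and all 60 differences were negative. The 31 made up 51.7% of the list, against 5.65% of all genes called lower. The median was -0.42, against -0.10 in control cells, and in batches 1, 3 and 4 it was -0.33, -0.45 and -0.42. Without batch 1 the count of 31 became 9, without batch 3 it was 0 and without batch 4 it was 19. The test of the difference between the lines called 11 members, all with a more negative change in Ikaros cells, and 4.25% of all genes. Cks1b, a subunit of cyclin-dependent kinases, had the largest change, from 13.59, 13.47 and 13.46 to 12.67, 12.96 and 12.77 (-0.70, SE 0.13, adjusted p = 0.00127). Cyclin A2 (Ccna2) stood at 15.16, 15.16 and 15.15 at 18 h and at 14.63, 14.61 and 14.60 at 24 h. Its replicates were almost superimposed, and the difference was -0.54 (SE 0.08, adjusted p = 0.000349). Ccnb1, Cdk1, Aurkb, Plk1 and the transcription factor Foxm1 changed by -0.51, -0.52, -0.56, -0.48 and -0.50. Mki67 and Top2a, common markers of dividing cells, changed by -0.25 (adjusted p = 0.61) and -0.37 (adjusted p = 0.0593) and were not called.

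In the interval before, more of the G2 and M genes had risen than fallen. From 12 h to 18 h, 16 of the 60 members rose and 1 fell, with a median of 0.18, whereas on the S phase list 17 fell and 1 rose, with a median of -0.18. Over all genes 30.9% were called in that interval, 1877 higher and 2062 lower. The shares called on these 2 lists were close to that, so the lists differed in direction and not in the number of calls. The test of the difference between the 2 intervals, which uses the 18 h libraries for both, called 14 of 60 G2 and M members and 2 of 64 S phase members, against 2.52% of all genes. Ccnb1 changed by 0.43 from 12 h to 18 h and by -0.51 from 18 h to 24 h, a difference of -0.94 (adjusted p = 0.0104). For glycolysis the preceding interval was similar, with 16 of 21 members lower and a median of -0.88, against 30.9% of all genes called in either direction.

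**Figure D3:**
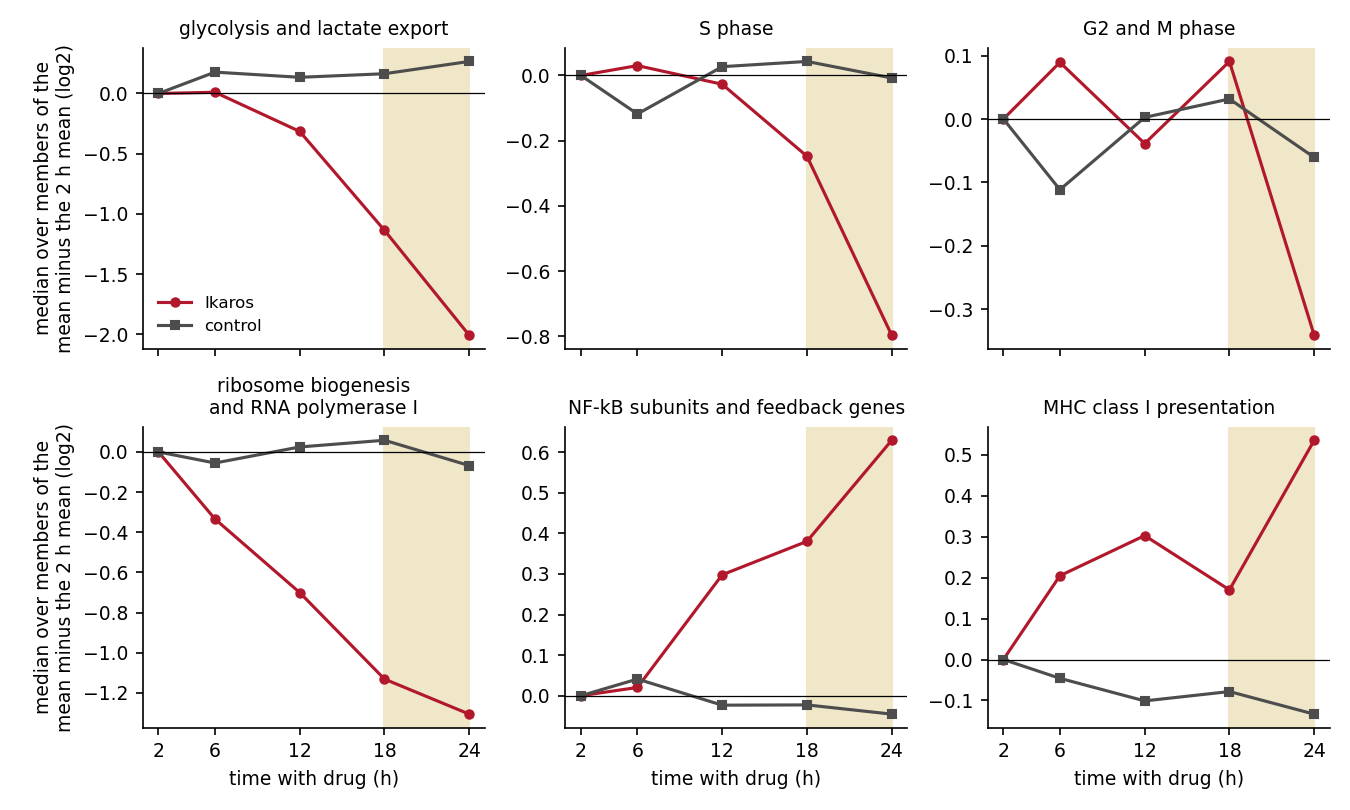
For 6 gene lists, the median over the members of the mean level at each time minus the mean level at 2 h (log2) is plotted against time with drug, in Ikaros and in control cells, with its own y axis in each panel. In Ikaros cells the S phase median went from -0.25 at 18 h to -0.80 at 24 h and the G2 and M median from 0.09 to -0.34 (shaded interval), while the control medians moved by less.

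Ribosome biogenesis, a process that depends on Myc, continued to fall in a minority of its genes. Of 56 members, 16 fell and 1 rose, with a median of -0.24, against -0.12 in control cells. The share called on this list was 30.4%, against 8.31% of all genes. The count of 16 was 1 without batch 1, 0 without batch 3 and 3 without batch 4. In the test between the lines, 5 members had a more negative change in Ikaros cells and 1 a more positive one. That test called 4.25% of all genes. Nop56 and fibrillarin (Fbl), proteins of the small nucleolar ribonucleoproteins, changed by -0.64 (SE 0.17) and -0.50 (SE 0.11), and the RNA polymerase I subunit Polr1a by -0.54 (SE 0.07). Nop56 also changed by -0.32 in control cells, and it did not pass the test between the lines (adjusted p = 0.488). The riser was Wdr12 (0.38, SE 0.09). Myc itself stood at 13.45, 13.66 and 14.05 at 18 h and at 13.22, 13.83 and 13.41 at 24 h. The libraries overlapped and the difference of -0.23 (SE 0.16, adjusted p = 0.484) did not pass. Of the other members of the Myc network, Mxd3 fell (-0.63) and Mxd4 rose (0.54), both antagonists of Myc.

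On the integrated stress response list 6 of 20 members fell and 0 rose, against 5.65% of all genes called lower. The 6 encode enzymes of serine, proline, asparagine and one-carbon metabolism, namely Pycr1 (-1.01), Phgdh (-0.90), Asns (-0.55), Shmt2 (-0.50), Mthfd2 (-0.48) and Psat1 (-0.33). Of the list, 2 members were called lower without batch 1, 2 without batch 3 and 3 without batch 4. Phgdh, the first enzyme of serine synthesis, went from 14.08, 14.25 and 14.15 to 13.12, 13.54 and 13.11 (SE 0.11, adjusted p = 5.29e-05). The stress factors of that list, Atf4 (-0.14) and Ddit3 (0.12), were not called. Among amino acid carriers and tRNA synthetases 4 of 31 fell, including the arginine carrier Slc7a1 (-0.62), and 0 rose. That share of 12.9% compares with 5.65% of all genes called lower. Slc7a5, the leucine carrier, changed by -0.39 (adjusted p = 0.131).

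**Figure D4:**
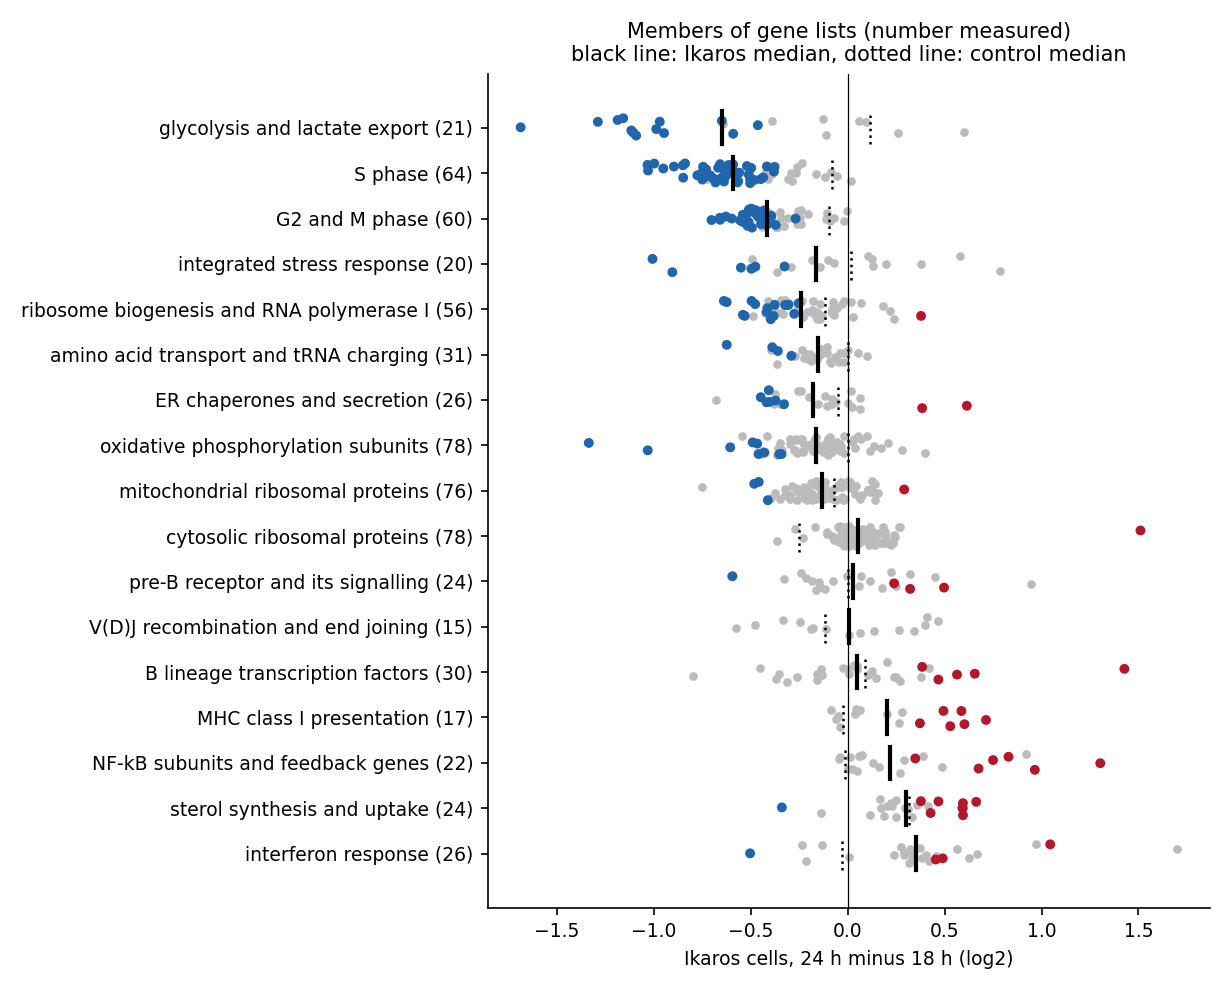
Each point is a member of a gene list, placed by its log2 difference between 24 h and 18 h in Ikaros cells, with called members in red (higher) or blue (lower) and the others in grey. Black lines mark the median of the list in Ikaros cells and dotted lines its median in control cells, and for glycolysis these are -0.65 and 0.11.

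The genes that rose included inhibitors and subunits of NF-kB. NF-kB is held in the cytoplasm by I-kappa-B proteins, and it induces several of its own inhibitors. Nfkbia, the main inhibitor, stood at 13.42, 13.52 and 13.68 at 18 h and at 14.48, 14.57 and 14.46 at 24 h. All 24 h libraries lay above all 18 h libraries, and the difference was 0.97 (SE 0.16, adjusted p = 0.000737), while the control means were 13.12 and 13.11. Nfkb2 went from 12.05, 12.06 and 12.04 to 13.06, 12.63 and 12.94, a difference of 0.83 (SE 0.13, adjusted p = 0.000274). Tnfaip3, the feedback regulator A20, changed by 1.30 (SE 0.29), Nfkbie by 0.68, Relb by 0.75 and Birc3 by 0.35. The subunits Nfkb1 and Rela changed by -0.04 (adjusted p = 0.859) and 0.05 (adjusted p = 0.855).

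Over the NF-kB list 6 of 22 members rose, 0 fell and 16 did not pass, with a median of 0.22, against -0.02 in control cells. The 6 made up 27.3% of the list, against 2.66% of all genes called higher. In the test between the lines 4 members had a more positive change in Ikaros cells (Nfkbia, Nfkb2, Nfkbie and Tnfaip3), and 4.25% of all genes were called. The count of 6 was 0 without batch 1, 1 without batch 3 and 6 without batch 4. Ltb, the lymphotoxin beta gene and a known NF-kB target, followed a different course. It was at 11.81, 11.58 and 11.77 at 18 h and at 12.83, 12.77 and 12.88 at 24 h, a difference of 1.11 (SE 0.18, adjusted p = 0.000626). From 12 h to 18 h it had changed by -1.07, and the difference between the 2 intervals, 2.18, was the largest positive one among called genes at or above the median level (adjusted p = 0.00205).

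The windows of Nfkbia (chr12:55492598-55492897, minus strand) and Ltb (chr17:35194257-35194556, plus strand) are shown because both hold the NF-kB core GGGANNTTC, where N is any base. This motif was added after the values had been seen. It starts at position 138 on the forward strand and at 223 on the reverse strand in Nfkbia and at 165 on the reverse strand in Ltb, and the other capitals in Ltb, from position 127, are the Foxo core TGTTTAC on the reverse strand. The NF-kB core was in 1 of 17 list members with a window (5.88%), in 3.56% of the genes called higher, in 4.40% of those called lower and in 3.59% of the table genes. TGTTTAC was in 3.95% of the genes called higher, 1.47% of those called lower and 2.31% of the table genes.
Nfkbia: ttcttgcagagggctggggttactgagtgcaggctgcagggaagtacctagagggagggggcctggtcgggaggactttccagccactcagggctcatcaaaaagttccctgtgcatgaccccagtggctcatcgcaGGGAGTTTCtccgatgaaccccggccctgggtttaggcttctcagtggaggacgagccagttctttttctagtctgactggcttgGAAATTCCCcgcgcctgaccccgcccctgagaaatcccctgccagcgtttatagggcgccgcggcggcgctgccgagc
Ltb: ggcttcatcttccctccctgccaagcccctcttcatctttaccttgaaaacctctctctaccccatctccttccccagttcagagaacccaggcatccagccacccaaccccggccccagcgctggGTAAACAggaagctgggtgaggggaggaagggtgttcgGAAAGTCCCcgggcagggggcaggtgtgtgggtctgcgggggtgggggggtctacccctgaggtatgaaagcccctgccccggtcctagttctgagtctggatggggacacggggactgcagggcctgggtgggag

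Class I antigen presentation rose in part. On that list 6 of 17 members rose and 0 fell, with a median of 0.20, against -0.02 in control cells. They were the class I chains H2-Q4 (0.71), H2-T23 (0.59), H2-K1 (0.53), H2-Q7 (0.49) and H2-D1 (0.37) and Nlrc5 (0.60), an activator of class I genes. H2-Q4 went from 14.69, 14.73 and 14.66 to 15.29, 15.66 and 15.28 (SE 0.13, adjusted p = 0.00154). These chains are close in sequence, and reads may be split between them. B2m changed by 0.05 and the transporter Tap1 by -0.06. The count of 6 was 1 without batch 1, 0 without batch 3 and 5 without batch 4. Those 6 made up 35.3% of the list, against 2.66% of all genes called higher. In batches 1, 3 and 4 the list median was 0.25, 0.32 and 0.06. Of the 17 members 1 passed the test of the difference between the lines, which called 4.25% of all genes. Of 26 interferon response genes, 3 rose and 1 fell, so 15.4% were called, against 8.31% of all genes. Socs1, an inhibitor of cytokine signalling, changed by 1.04 (SE 0.25) and Irf1 by 0.49 (SE 0.13). Gbp2 changed by 1.70 (SE 0.55, adjusted p = 0.0638) and was not called, although its 24 h libraries (11.01, 10.54 and 11.09) lay above its 18 h libraries (9.41, 8.93 and 9.20).

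On the class II list, H2-Ob rose (0.89, SE 0.19) and H2-Ab1 fell (-0.52, SE 0.14). H2-Ob encodes part of the H2-O molecule that limits peptide loading. The other 6 members were not called.

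On the list of B lineage transcription factors 5 of 30 members rose (16.7% called, against 2.66% of all genes called higher) and 0 fell, with a median of 0.05, against 0.01 over all genes. In the test between the lines 1 member had a more positive change in Ikaros cells, and 4.25% of all genes were called. The 5 rises became 1 without batch 1, 0 without batch 3 and 5 without batch 4. Foxo1, which drives the recombinase genes and is held back by growth factor signalling, stood at 16.07, 15.88 and 15.86 at 18 h and at 16.55, 16.53 and 16.69 at 24 h. The difference was 0.66 (SE 0.09, adjusted p = 6.38e-05), with control means of 14.46 at both times. Irf4, which acts at the exit from the cycling pre-B stage, changed by 1.43 (SE 0.34, adjusted p = 0.011), from 7.45, 6.79 and 7.50 to 9.06, 8.64 and 8.33. Its level was below the median gene, and in the test between the lines it missed the threshold (1.57, adjusted p = 0.0708). Ebf1 changed by 0.56, Myb by 0.47 and Xbp1 by 0.38. Spib (-0.45, adjusted p = 0.335) and Pax5 (0.25) were not called.

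The recombinase genes were not called in this interval. Rag1, which cuts DNA at immunoglobulin loci, had changed by 2.66 from 12 h to 18 h. From 18 h to 24 h it went from 15.26, 14.55 and 14.84 to 15.84, 14.93 and 14.90, overlapping libraries with a difference of 0.34 (SE 0.24, adjusted p = 0.482). The difference between its 2 intervals was -2.32 (adjusted p = 0.00571), the largest negative one among called genes at or above the median level. Rag2 changed by -0.33 (adjusted p = 0.191). Of the 15 genes of recombination and end joining limma called 0, with 3 at an unadjusted p under 0.05, and the largest difference among them, for Dntt, was -0.57. Over all 12762 genes 8.31% were called and 2618 had an unadjusted p under 0.05, so 0 of 15 is not far from that share. Lig4, the ligase of end joining, changed by 0.26 (adjusted p = 0.403) after 1.17 from 12 h to 18 h.

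The surrogate light chain genes Igll1, Vpreb1 and Vpreb2, which form the pre-B cell receptor, changed by -0.22, -0.33 and -0.60 and were not called. From 2 h to 12 h the first of these had changed by -3.34. Of the 24 genes of the receptor and its signalling, the kinases Fyn (0.50) and Syk (0.24) and the adaptor Dok3 (0.32) rose and the adaptor Lat2 (-0.59) fell. On that list 16.7% were called, against 8.31% of all genes. The linker Blnk changed by 0.32 (adjusted p = 0.109) and passed the test between the lines (0.65, adjusted p = 0.0321). Among 22 surface markers of B cell stages, the IL-2 receptor chain Il2ra rose (0.55) and Cr2 fell (-0.47). The share called, 9.09%, was close to the 8.31% of all genes. Il7r changed by 0.35 (adjusted p = 0.0789).

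**Figure D5:**
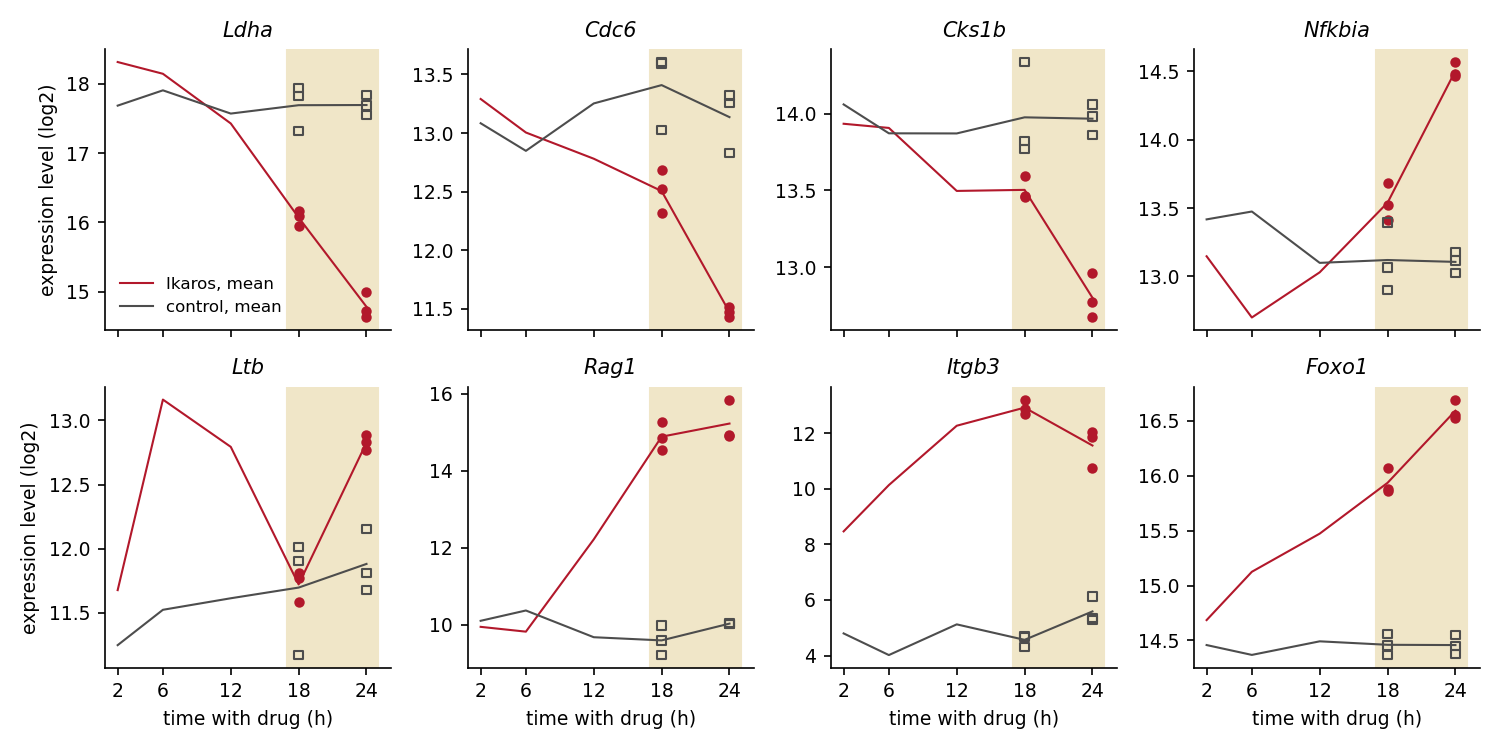
Expression levels (log2) of 8 genes are plotted against time with drug, as lines through the means in Ikaros (red) and control (grey) cells, with the 3 libraries of each line at 18 h and 24 h as points. The 24 h Ikaros libraries lie below those of 18 h for Ldha, Cdc6, Cks1b and Itgb3, lie above them for Nfkbia, Ltb and Foxo1, and overlap them for Rag1.

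Sterol synthesis genes rose in Ikaros cells, and their median in control cells was close to it. In Ikaros cells 8 of 24 members rose and 1 fell (Ebp, -0.34), with a median of 0.30. The share called was 37.5%, against 8.31% of all genes. The control median was 0.32, with 0 members called by limma and 14 at an unadjusted p under 0.05. Nsdhl changed by 0.66 (SE 0.12), Fdft1, the squalene synthase, by 0.59 (SE 0.10), and Hmgcs1 by 0.59 (SE 0.12). In control cells the same genes changed by 0.47, 0.37 and 0.37. In the test between the lines Ebp alone of this list passed, and 4.25% of all genes were called. The differences for Nsdhl, Fdft1 and Hmgcs1 were 0.19, 0.22 and 0.22 with SE between 0.14 and 0.18. The count of 8 was 3 without batch 1, 0 without batch 3 and 5 without batch 4.

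Genes that regulate cell death and growth factor signalling moved singly. The pro-apoptotic Bbc3 rose from 11.13, 10.80 and 10.83 to 12.21, 11.76 and 11.81 (1.01, SE 0.17, adjusted p = 0.000929), and Bmf rose by 1.07 (SE 0.31). Of 16 Bcl2 family genes these were the risers and Bnip3 was the single faller. Of 24 p53 targets 3 rose (Bbc3, Dcxr and Sesn1) and 0 fell, and Cdkn1a changed by -0.36 without a call. On the Foxo and PI3K list 4 of 30 rose, among them Foxo1 and Pik3ip1, an inhibitor of PI3K (0.66), and the pyruvate dehydrogenase kinase Pdk1 fell. Junb (0.64) and Jund (0.54) were the called genes among 28 immediate early genes. That share of 7.14% was below the 8.31% of all genes. On the Bcl2, p53 and Foxo and PI3K lists the shares called were 18.8%, 12.5% and 16.7%. Counts of 4 or fewer on a list, here and elsewhere, mostly shrank without batch 1 or 3 too, as when the 4 Foxo and PI3K genes became 1 and 0.

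Of 78 cytosolic ribosomal proteins 1 rose, the muscle form Rpl3l (1.51, SE 0.35), with a median of 0.06 for the list, against -0.25 in control cells. Mitochondrial ribosomal proteins had 1 rise and 3 falls among 76, and proteasome subunits had 1 fall among 38. The shares called on these 3 lists were 1.28%, 5.26% and 2.63%, against 8.31% of all genes. On the list of ER chaperones and secretion 6 of 26 fell, including Hspa5 (-0.42), and 2 rose (Herpud1, 0.61, and Xbp1). The share called was 30.8%, against 8.31% of all genes. The 6 falls became 2, 0 and 3 without batches 1, 3 and 4. Of 36 lysosomal and autophagy genes 3 rose (Gabarapl2, Npc2 and Neu1) and 0 fell, so 8.33% were called, against 8.31% of all genes.

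Among called genes at or above the median level, Gm10443, Kynu and Epsti1 had the largest rises. Kynu, which encodes kynureninase, an enzyme of tryptophan breakdown, stood at 11.54, 11.06 and 11.11 at 18 h and at 13.11, 12.71 and 12.86 at 24 h (1.66, SE 0.39, adjusted p = 0.0102). Epsti1, an interferon-inducible gene, went from 13.42, 13.19 and 13.04 to 14.99, 14.73 and 14.29 (1.45, SE 0.19, adjusted p = 6.5e-05), with control means of 9.18 and 9.22. Besides Ltb, Nfkbia and H2-Ob, the 15 largest rises included Sepp1 (selenoprotein P, 1.14), Inadl (a polarity protein, 1.04), Gstm1 (a glutathione transferase, 0.97), Snx33 (a sorting nexin, 0.91), Pde1b (a cyclic nucleotide phosphodiesterase, 0.91), Stom (a membrane scaffold, 0.91), Osbpl5 (a lipid transfer protein, 0.89) and Sp100 (a nuclear body protein, 0.85). Gm10443 (1.81), a processed pseudogene, and Gm10116 (1.15) also passed the rule. Their reads may come from near-identical copies, and their control differences spread widely between batches.

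Most genes that moved between 18 h and 24 h and had been called from 2 h to 12 h kept their earlier direction. The 2 h and 12 h libraries are not part of the 18 h to 24 h comparison. Of the 340 genes called higher, 178 had been called higher from 2 h to 12 h (52.4% of the 340 and 6.36% of the 2799 early risers), against 21.9% of all genes. Of the 721 called lower, 322 had been called lower (44.7% of the 721 and 12.1% of the 2660 early fallers), against 20.8% of all genes. In the opposite direction were 46 of the genes now higher and 82 of those now lower. A gene with little spread is more readily called in both comparisons.

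Itgb3, the beta3 integrin subunit, was the most marked of the 128 genes that turned. It had changed by 3.80 from 2 h to 12 h. It then fell from 13.21, 12.87 and 12.68 at 18 h to 11.86, 10.76 and 12.06 at 24 h, a difference of -1.36 (SE 0.29, adjusted p = 0.00519), with batch 3 lowest. In control cells its mean was 4.56 at 18 h and 5.59 at 24 h. Other genes that had risen and now fell were Cox6a2, E2f8, Pcx (pyruvate carboxylase, 0.37 then -0.77), Pask (a metabolic kinase, 0.38 then -0.80) and Fancd2 (DNA crosslink repair, 0.31 then -0.75). Genes that had fallen and now rose included Il12a (a subunit of interleukin-12, -1.68 then 0.70), Selm (selenoprotein M, -1.10 then 0.80), Adssl1 (purine synthesis, -0.68 then 0.61), Ankrd12 (-0.62 then 0.62), Fbxo6 (-0.54 then 0.58) and Hmgcs1 (-0.33 then 0.59).

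The direct test of the interval from 18 h to 24 h against that from 12 h to 18 h called 321 genes (2.52%), 140 with a more positive and 181 with a more negative change. The count was 10 without batch 1, 1 without batch 3 and 51 without batch 4. Bach2, a repressor of plasma cell fate, changed by 2.56 and then by 0.42, Zc3h12d by 2.11 and then by -0.03, Cpm by 2.70 and then by 0.58, and Thbd by 2.06 and then by -0.02. In the other direction, Pfkp changed by -1.98 and then by -0.59, and Etv5 by -1.21 and then by 0.11. For these genes the larger step was the earlier one.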

How the data were processed

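Messenger RNA from mouse B3 cells was sequenced by the authors, aligned to mm10 with TopHat2 and counted over genes with HTSeq. The deposited values are log2 expression from the authors, who corrected for GC and length in cqn and removed library preparation effects by non-parametric ComBat. The table does not state the base of its logarithm. The strand setting of the counting is not given in the sources used here. Adjustment before deposition can make standard errors too small. No column held a comparison of the authors.

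Groups came from the sample labels. The 30 libraries from 2 h to 24 h were fitted in limma 3.58.1 (R 4.3.3; lmFit, contrasts.fit, eBayes) with 10 group means and culture batch as a replicate block, 18 residual degrees of freedom and 1.98 prior ones. The study states no differential test. P-values are two-sided and adjusted by Benjamini-Hochberg over 12762 genes. They rest on the spread left after group means and mean batch shifts, pooled over the 30 libraries of both lines. They do not measure the spread of the 3 Ikaros cultures at 18 h and 24 h alone. The labels mark the numbers as shared culture batches, which pairs the libraries, and the deviations of the 18 h and 24 h Ikaros libraries of a batch correlated by 0.087, 0.014 and 0.160 in batches 1, 3 and 4. No pair of the 6 libraries shared more than 0.384% of its values.

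Named genes were the 15 largest rises and falls (with a symbol, called, same direction in 3 batches, groups not overlapping, mean at or above the median gene at 11.71), Ikzf1 and 7 markers followed by RT-PCR in the study, up to 4 members with the largest change and those with a defining role in each of 33 gene lists, and the largest reversals and differences between lines and intervals. The members and lists were chosen with earlier results of these data known. Positions are those of GENCODE mouse release M21, which held 98.7% of the genes, and promoter windows of RefSeq matched 8568 genes by symbol, 1 window (the most upstream) a gene.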

Additional observations from a re-analysis of the deposited data

Results flagged for a closer look

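The change from 18 h to 24 h differed between the Ikaros and control lines by the test of that difference in 542 genes. Among genes at or above the median level, the largest positive differences (Ikaros change minus control change, log2) were 2.48 for Gm9385, 2.07 for Scarna9, 2.06 for Kynu, 1.99 for Gm14302 and 1.92 for Gm10288. Of these, Kynu alone was also called in Ikaros cells. Scarna9 is a small RNA gene, and the 3 Gm genes are unnamed gene models for which near-identical copies could share reads. The most negative differences were -2.39 for Itgb3, -1.49 for Cox6a2, -1.35 for Pcna, -1.34 for Pfkl and -1.29 for Ldha. The level was judged from the 6 Ikaros libraries alone. The control means of Itgb3, 4.56 and 5.59, lay far below the median gene at 11.71. Its control change of 1.02, part of the -2.39, was not called (limma adjusted p = 0.206). Pcna, the sliding clamp of DNA polymerase, stood at 17.74, 17.22 and 17.62 at 18 h and at 16.74, 17.12 and 16.55 at 24 h in Ikaros cells (-0.72, SE 0.24, adjusted p = 0.0721) and changed by 0.63 in control cells.

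The changes from 18 h to 24 h and from 12 h to 18 h in Ikaros cells differed in 321 genes. The largest positive differences (later minus earlier change, log2) were 2.18 for Ltb, 1.39 for Pfkp, 1.36 for Tmem121, 1.33 for Atp6v0a1 and 1.32 for Etv5. The most negative were -2.32 for Rag1, -2.14 for Bach2, -2.14 for Zc3h12d, -2.12 for Cpm and -2.08 for Thbd. The 18 h libraries enter both intervals.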

How the results depend on the processing

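All 30 genes with the largest changes kept their direction under every alternative in which they were tested. They were chosen for the same direction in all 3 batches, so leaving out a batch or changing the fitted libraries could not reverse them. The calls kept ranged from 0 of 30 (only the compared groups fitted) to 30 of 30 (quantile normalisation, eBayes with trend and robust settings). The counts of calls moved far more, and the cause was not tested. Without the replicate block the comparison of 24 h with 18 h in Ikaros cells called 594 genes, the difference between the lines 224 and the difference between the intervals 55. Fitting only the groups compared gave 0, 0 and 0 genes for these, 590 for 18 h against 12 h and 1876 for 12 h against 2 h. Fitting the Ikaros libraries alone gave 454 for 24 h against 18 h and 23 for the difference between the intervals. All 36 libraries without the block gave 336 for the difference between the lines and 147 for the intervals. Leaving out culture batch 1, 3 or 4 in turn gave 45 to 791 genes for 24 h against 18 h, 0 to 96 for the lines, 1676 to 2873 for 18 h against 12 h, 1 to 51 for the intervals and 3521 to 4346 for 12 h against 2 h. Control cells gave 0 calls throughout. The filter on low values, quantile normalisation and the eBayes settings moved none of these counts by over 1.5 times. Sequencing depth is unknown, so its limits could not be given.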
